A study of Homo sapiens with 18 samples.

Results

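G401 is an established cell line of malignant rhabdoid tumour, a childhood cancer that arises after loss of SMARCB1, a subunit of the SWI/SNF chromatin remodeller. The study knocked out RB1 in it with CRISPR/Cas9 and worked with 2 clones, E1 and F2, both reported by the submitters to lack RB1 protein, beside a WT control edited at the AAVS1 safe harbour site. E1, F2 and WT each received 10 µM tazemetostat or the solvent DMSO over 11 days, with 3 biological replicates per group. The results below set the 3 tazemetostat libraries of E1 against the 3 of F2. Both groups share the cell line, the labelled RB1 knockout genotype and the drug, and differ in the clone, so the comparison is between 2 single clones and holds no group with RB1 intact. The 16342 genes with a mean deposited value of at least 10 over these 6 libraries were compared, out of 55765 in the table. SENP3-EIF4A1 lay just inside this limit with a mean of 10.0032 and RP11-149I2.5 just outside with 9.99818, and the other 39423 genes were not tested. Values are normalized counts, that is, reads divided by a size factor per library.

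Tazemetostat inhibits EZH2, the catalytic subunit of Polycomb repressive complex PRC2, which places methyl groups on lysine 27 of histone H3 and so keeps developmental genes silent. Rhabdoid tumours are known to depend on EZH2, since the SWI/SNF complex that opposes Polycomb is defective in them. RB1 encodes the retinoblastoma protein, which binds E2F factors and holds back entry into S phase, and cells without it can go on cycling where cells with it would stop.

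The line's labels were first checked against its defining genes. SMARCB1 had 0 reads in all 18 libraries, and VIM, a mesenchymal filament gene expressed in rhabdoid cells, had normalized counts of 62093, 69993 and 67413 in E1 against 48527, 46202 and 47938 in F2. RB1 transcripts were present in both clones with 939, 947 and 1045 in E1 against 945, 932 and 936 in F2. The clones overlapped at RB1 (log2 difference 0.058 ± 0.07 (SE), adjusted p = 0.53), and the mean in the WT tazemetostat libraries was 2474. A gene-level count cannot show a small edit, so the RB1 counts do not check the knockout itself. The 6 libraries held 31947071 to 37258788 recovered reads. The first principal component of the 6 libraries carried 77.4% of the variance and separated the clones, and the second carried 8.96% and set E1 replicate 1 apart from the rest. Counts without E1 replicate 1 were 449 genes higher and 942 lower in E1, against 434 and 801 with it.

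With tazemetostat, 1235 genes (7.56% of the 16342 tested) differed between the clones at a Benjamini-Hochberg adjusted p under 0.05 and a log2 difference of at least 1 in size, by limma on log2(normalized count + 1). Of these, 434 (2.66%) were higher in E1 and 801 (4.9%) were lower in E1. The 3 libraries of each clone did not overlap at 433 of the 434 and 785 of the 801, but this was also the case at 8621 of all tested genes (52.8%). The median log2 difference was 1.50 over the higher genes and -1.45 over the lower ones, and 127 and 201 of them passed 2. Of the 1235, 347 had a mean under 10 in one of the clones and entered the test only through the other. Such genes had to differ to be tested: 51.9% of the 668 of them passed the threshold, against 5.67% of the other genes. In cultures, fewer cells that express a gene and less RNA per cell cannot be told apart in these values. The labels do not say how the cultures of a clone were separated, so p-values measure the spread between these libraries.

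The same clones in DMSO, which share no library with the tazemetostat comparison, differed at 961 of the same genes (5.88%), 553 higher (3.38%) and 408 lower (2.5%) in E1. Of the 434 genes higher in E1 with tazemetostat, 173 were also higher in DMSO, which is 39.9% of the tazemetostat list and 31.3% of the DMSO list. Of the 801 lower genes, 166 were also lower in DMSO (20.7% of the tazemetostat list and 40.7% of the DMSO list). A further 5 higher and 17 lower genes passed the threshold in the opposite direction in DMSO. The other 256 higher and 618 lower genes were not past the threshold in DMSO. Of the 434 higher and 801 lower genes, 141 and 285 had no more than 3 reads in any of the 6 DMSO libraries. This is 32.5% and 35.6% of the lists against 5.68% of all tested genes. The median log2 difference in DMSO was 0.82 over the higher list and -0.39 over the lower list. Across all tested genes, which are not independent replicates, Pearson's r between the DMSO and the tazemetostat differences was 0.504 (Spearman's rho 0.510).

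**Figure D1:**
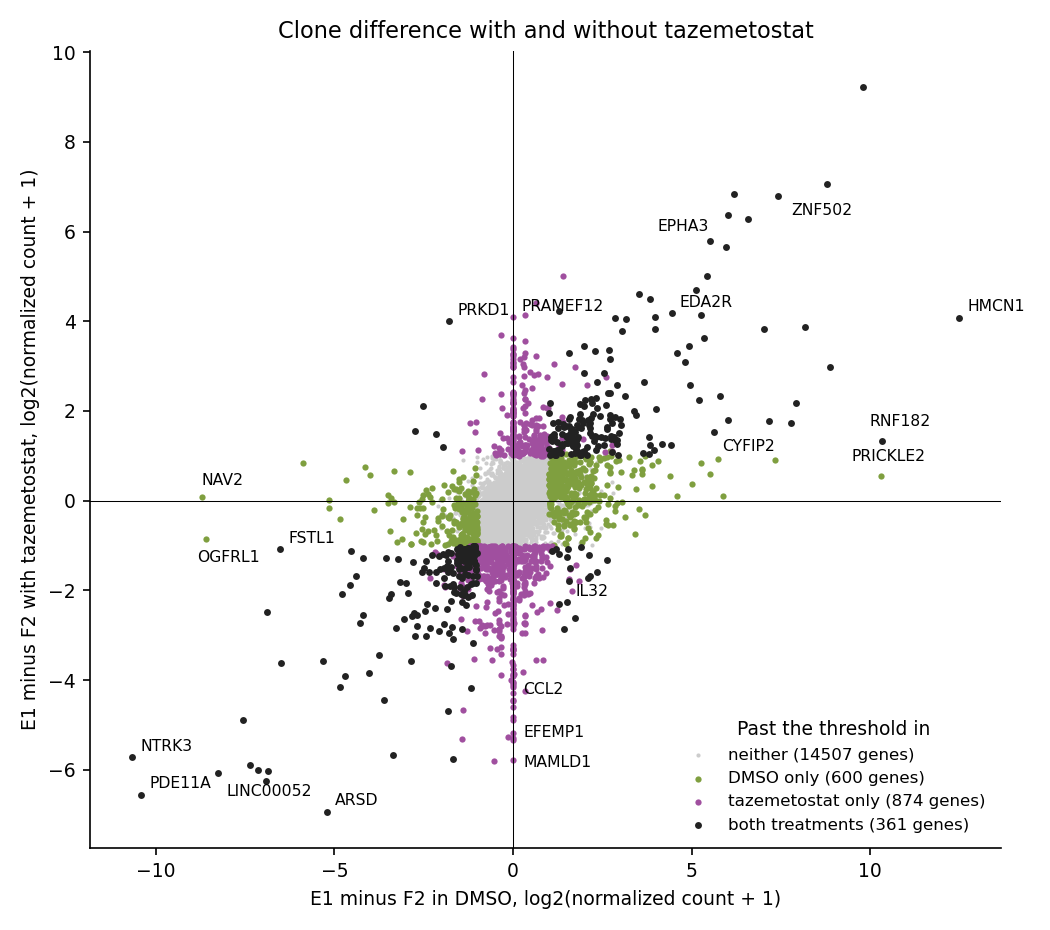
Each point is 1 of the 16342 tested genes, placed by its E1 minus F2 difference in log2(normalized count + 1) in DMSO (horizontal) and with tazemetostat (vertical), coloured by the treatment in which it passed the threshold. Genes toward the upper right and lower left passed it in both treatments (ZNF502, NTRK3), those near the horizontal axis passed the threshold in DMSO alone (NAV2, PRICKLE2), and those near the vertical axis passed it with tazemetostat alone (MAMLD1, PRAMEF12).

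Several of the largest differences were present in both treatments. ZNF502, a zinc-finger protein gene, had 124, 111 and 96.1 in E1 against 0 reads in each library in F2 with tazemetostat. It was thus at least 38-fold higher in E1 against a floor of 3 reads per library, and F2 also had 0 reads in each DMSO library while E1 had 174 on average. EPHA3, a receptor tyrosine kinase for ephrins, had 4866, 5593 and 5753 in E1 against 61.2, 68.6 and 62 in F2, a ratio of means of 84.5 (log2 difference 6.38 ± 0.087 (SE), adjusted p = 3.8e-16). In DMSO the 2 clones stood at 8939 and 139, a log2 difference of 6.02. MSL3P1, a pseudogene of the chromatin gene MSL3 (log2 difference 5.02), EDA2R, a p53-induced receptor of the TNF family (4.19), and APOBEC3B, a cytidine deaminase (3.37), were also higher in E1 in both treatments. The WT tazemetostat mean was near that of E1 at ZNF502 (121) but far below it at EPHA3 (197) and EDA2R (154).

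Persisting differences in the other direction included NTRK3, the receptor of neurotrophin-3, with 1.06, 0.967 and 7.54 in E1 against 205, 179.7 and 137 in F2. Every F2 library exceeded every E1 library (log2 difference -5.72 ± 0.45 (SE), adjusted p = 1e-07), although F2 itself was lower with tazemetostat than in DMSO, where its libraries held 1541, 1628 and 1740.1 and E1 had 0 reads in all 3. PDE11A, a cyclic nucleotide phosphodiesterase, followed the same pattern with 3.19, 0.967 and 1.88 in E1 against 245, 279.6 and 286 in F2, and a mean of 1359.7 in F2 in DMSO against 0 reads in E1. The long non-coding RNA LINC00052 had 1.06, 5.8 and 47.1 in E1 against 626, 590.4 and 558 in F2. It was lower in E1 in every library (log2 difference -6.08 ± 0.71 (SE), adjusted p = 8.1e-06), but its 3 E1 libraries spanned a wide range, with replicate 3 the highest. ARSD, an arylsulfatase gene (-6.93), GYLTL1B, a glycosyltransferase that modifies dystroglycan (-6.03), FRZB, a secreted WNT antagonist (-4.88), and ITGA4, an integrin subunit (-4.15), were lower in E1 with tazemetostat and past the threshold in DMSO too, with DMSO differences of -5.21, -6.87, -7.57 and -4.86.

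The 250 bases before the start of ZNF502, NTRK3 and OGFRL1 are given here from RefSeq on GRCh38.p14, as single examples of promoters with unlike CG content. In DMSO ZNF502 had no read in F2 and NTRK3 none in E1. OGFRL1, which is described below, had a few reads or none in E1 in DMSO. Pairs of C followed by G are in capitals, and each sequence reads 5′ to 3′ on the gene's strand. ZNF502 lies on the plus strand at chr3:44712410-44712659 and has 13 CG pairs, a number that 46.6% of the 35116 promoters in the RefSeq table reach. NTRK3 lies on the minus strand at chr15:88256740-88256989 and has 23, which 25.8% reach. OGFRL1 lies on the plus strand at chr6:71288561-71288810 and has 34, which 6.84% reach. These examples do not stand for sets of genes. Over tested genes with a promoter in the RefSeq table the median was 23 CG pairs, at the highest number per gene. It was 16 over the genes past the threshold with tazemetostat, 13 over those higher and 17 over those lower in E1. Where the threshold was passed in both treatments in the same direction, the median was 19. Among genes past it in DMSO but not with tazemetostat, and with a called difference between treatments, the median was 22. The deposited values were made on hg19, so these coordinates serve only to place the sequences.
ZNF502: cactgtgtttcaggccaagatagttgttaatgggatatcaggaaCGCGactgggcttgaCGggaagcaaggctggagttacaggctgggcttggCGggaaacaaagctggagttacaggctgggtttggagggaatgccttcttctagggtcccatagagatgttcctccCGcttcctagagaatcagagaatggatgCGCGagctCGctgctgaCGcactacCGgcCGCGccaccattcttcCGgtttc
NTRK3: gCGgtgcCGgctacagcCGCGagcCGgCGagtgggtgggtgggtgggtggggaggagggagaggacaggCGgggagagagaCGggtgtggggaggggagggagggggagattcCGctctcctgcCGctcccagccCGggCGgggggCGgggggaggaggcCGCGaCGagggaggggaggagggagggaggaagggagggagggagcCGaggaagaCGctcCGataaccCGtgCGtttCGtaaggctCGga
OGFRL1: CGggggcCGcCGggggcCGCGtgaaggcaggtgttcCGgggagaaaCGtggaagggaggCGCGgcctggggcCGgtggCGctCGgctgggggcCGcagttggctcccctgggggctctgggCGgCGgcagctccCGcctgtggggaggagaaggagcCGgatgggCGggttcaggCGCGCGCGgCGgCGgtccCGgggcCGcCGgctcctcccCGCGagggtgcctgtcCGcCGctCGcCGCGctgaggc

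A second set of genes differed strongly between the clones in DMSO and far less with tazemetostat. Of the 73 genes with a DMSO difference of at least 4 on the log2 scale in either direction, 55 passed the threshold in the same direction with tazemetostat, 23 still differed by at least 4, and 18 differed by less than 1. Taken in the direction of the DMSO difference, the median difference over these 73 genes was 5.52 in DMSO and 2.56 with tazemetostat. These genes were chosen for their size in DMSO. PRICKLE2, a planar cell polarity gene, had 0 reads in each F2 DMSO library and 1423, 1034 and 1333 in E1. With tazemetostat it had 3931, 3916 and 3794 in E1 against 2474, 2757 and 2679.7 in F2, so that the log2 difference went from 10.29 to 0.56, and the difference between these differences, tested in a fit over the 12 libraries of both treatments, was -9.73 (adjusted p = 2.4e-13). NAV2, a neuron navigator gene, went the other way in DMSO, with 8.04, 11.6 and 2.92 in E1 against 3031, 3041 and 3639 in F2. With tazemetostat the clones overlapped at 13107, 11388 and 12193 in E1 against 11130.4, 11894 and 11829.8 in F2 (log2 difference 0.072 ± 0.065 (SE), adjusted p = 0.39).

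OGFRL1, whose function is little known, had 4.46, 9.65 and 0 in E1 against 1552, 1572 and 1422 in F2 in DMSO and 5861, 6470.1 and 7065 in E1 against 11474, 11389.8 and 11983 in F2 with tazemetostat. F2 remained higher with tazemetostat in all 3 libraries, with a log2 difference of -0.85, inside the limit of 1, against -8.61 in DMSO. KIF26B, a kinesin gene, stood at 13.2 in E1 and 510.0 in F2 in DMSO, and its tazemetostat libraries overlapped at 391, 332 and 404 in E1 against 359, 388 and 369 in F2. PGBD5, a gene derived from a transposase, had means of 2.56 and 84.1 in DMSO and 999 and 726 with tazemetostat.

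HMCN1, which encodes the matrix protein hemicentin, kept part of its difference. It had 8588, 5273 and 8619 in E1 against 0, 1.04 and 0 in F2 in DMSO and 8659, 6459 and 8247 in E1 against 379, 529.9 and 474 in F2 with tazemetostat, with no overlap in either treatment and log2 difference 4.08 ± 0.12 (SE), adjusted p = 3.7e-12 with the drug. RNF182, a ubiquitin ligase gene, had a mean of 1674 in E1 against 0.404 in F2 in DMSO, and 1056 against 417 with tazemetostat (log2 difference 1.34). PLXNA2, a semaphorin receptor, OLR1, the receptor of oxidized LDL, and RP11-24F11.2 also had a mean under 3 in F2 in DMSO and stood at 1113, 1051 and 85.5 there with tazemetostat, against 2099, 3488 and 672 in E1. FSTL1, a secreted follistatin-like glycoprotein, was the reverse, with 44.7 in E1 and 4189.6 in F2 in DMSO and 3364 and 7072 with tazemetostat.

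**Figure D2:**
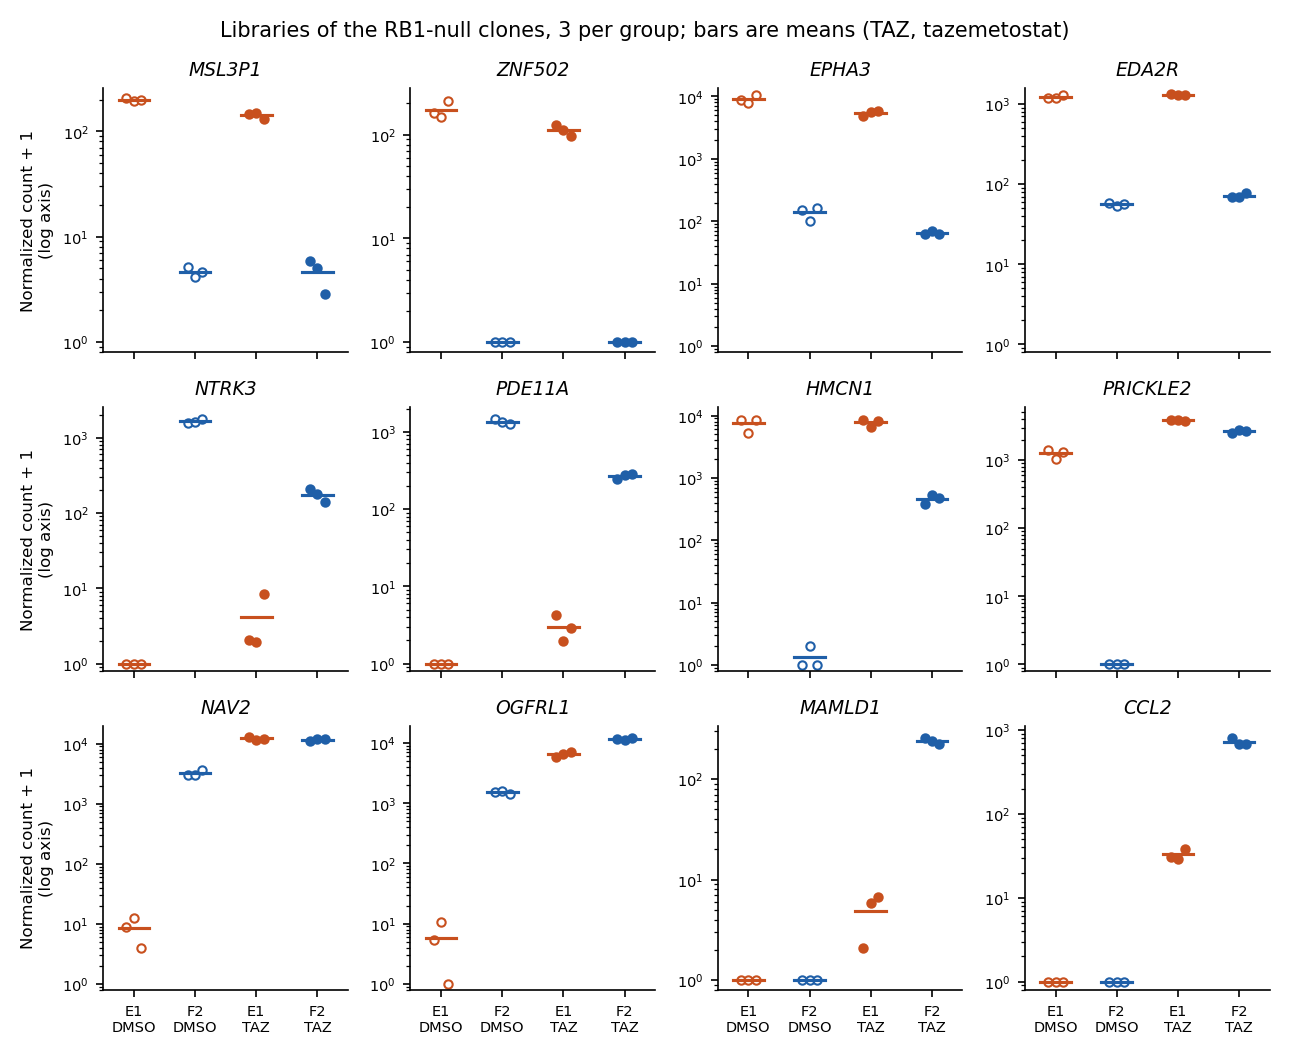
Normalized counts plus 1 on a log axis in each library of E1 (orange) and F2 (blue), in DMSO (open points) and with tazemetostat (filled points, TAZ), 3 libraries per group, with bars at the group means. MSL3P1 to PDE11A stand apart in both treatments, HMCN1 to OGFRL1 are further apart in DMSO than with tazemetostat, and MAMLD1 and CCL2 have 0 reads in DMSO and differ with tazemetostat.

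Another set had few or no reads in DMSO and reached different levels in the clones with tazemetostat. MAMLD1, a mastermind-like gene of gonadal development, had 0 reads in all 6 DMSO libraries and 1.06, 4.84 and 5.65 in E1 against 254, 240.2 and 220.1 in F2 with tazemetostat. F2 was 61.9 times as high as E1 (log2 difference -5.79 ± 0.35 (SE), adjusted p = 7.1e-09). EFEMP1, which encodes the matrix protein fibulin-3, had 7.45, 8.7 and 10.4 in E1 against 314, 276 and 281 in F2, and PLXNC1, a semaphorin receptor, had 4.26, 4.84 and 10.4 in E1 against 152, 184 and 175 in F2, both also with 0 reads in DMSO. All 3 genes were higher in every F2 library than in any E1 library, and the log2 differences of EFEMP1 and PLXNC1 were -4.89 and -4.60. C8orf4 (-5.30), MMP2, a gelatinase (-4.12), CADM1, a cell adhesion molecule (-3.67), and APCDD1, a WNT inhibitor at the cell surface (-5.33), shared this pattern. NDNF, a secreted neurotrophic factor (-5.80), B3GALT1, a galactosyltransferase (-5.32), and PPARGC1A, the coactivator of mitochondrial biogenesis (-5.27), had means under 3 in both clones in DMSO.

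Genes of this set that were higher in E1 included SYT16, a synaptotagmin gene, with 427, 371 and 425 in E1 against 40.8, 49.5 and 33.3 in F2. Each E1 library was higher than each F2 library (log2 difference 3.29 ± 0.15 (SE), adjusted p = 3.4e-10), and no DMSO library had more than 1 read. ITGA2, the collagen-binding integrin subunit alpha-2, had 3168, 3234 and 3564 in E1 against 520.4, 563 and 655 in F2, a ratio of means of 5.73. FBN2, a fibrillin gene, had 46.8, 40.6 and 47.1 in E1 against 1.94, 2.02 and 0.925 in F2, without overlap. VGLL3, a cofactor of TEAD factors (1.32), TFPI2, a protease inhibitor (1.61), and the potassium channel genes KCNK1 (2.99) and KCNN2 (2.06) had 0 reads in DMSO and were higher in E1.

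Of the genes past the threshold in both treatments, 5 and 17 were on opposite sides. Of any size, the DMSO difference had the same sign at 73.7% of the 434 higher and 64.9% of the 801 lower genes, with a difference of exactly 0 counted as not the same. PRKD1, which encodes protein kinase D1, had 495, 543 and 604 in E1 against 27.2, 27.3 and 49 in F2 with tazemetostat, higher in E1 in each library, while in DMSO E1 had 0 reads and F2 had 5.12, 2.07 and 1.21. MYH15, a myosin heavy chain gene, had 2267, 2107 and 2578 in E1 against 743, 749 and 870.4 in F2, against DMSO means of 6.02 in E1 and 44.6 in F2. IL32, a cytokine, ran the other way with 419, 394 and 409 in E1 against 2144, 1911 and 1828 in F2, lower in E1 with tazemetostat and higher in E1 in DMSO at 58.9, 64.7 and 42.9 in E1 against 20.5, 21.8 and 14.6 in F2. ERBB4, a receptor tyrosine kinase for neuregulins (1.49), IPCEF1 (2.11) and MGAM, a maltase-glucoamylase (1.20), were the other 3 that were higher in E1 with tazemetostat and lower in DMSO. Of the 17 that went the other way, KCNJ16, a potassium channel gene, SLC52A3, a riboflavin transporter, NPPB, which encodes a natriuretic peptide, IL32, KRT80, a keratin, and LTB, lymphotoxin beta, had the largest tazemetostat differences, -2.86 to -1.72 on the log2 scale. SLC52A3, NPPB, LTB, PRKD1, ERBB4 and MGAM had means under 6 in both clones in DMSO, so their DMSO differences rest on few reads.

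The difference between treatments in the E1 minus F2 contrast passed the threshold at 963 genes (5.89% of those tested), 293 with a higher (1.79%) and 670 with a lower (4.1%) value with tazemetostat. Of the 434 and 801 genes described above, 129 and 302 were among them in their own direction. On the recovered reads, edgeR called 167 of 183 and 426 of 466 of these genes where DMSO libraries had more than 3 reads, but 4 of 110 and 7 of 204 where they did not, so the interaction at genes without reads in DMSO depended on the tool. In the tazemetostat comparison itself edgeR also called 430 of the 434 and 787 of the 801, and DESeq2 405 and 747.

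The WT tazemetostat libraries, from cells edited at AAVS1, did not side with either clone as a whole. Their mean was nearer to E1 at 222 and nearer to F2 at 212 of the 434 genes higher in E1, and nearer to E1 at 385 and to F2 at 416 of the 801 lower genes. It lay between the clones at 268 and 481 of them. The median normalized count over the 434 genes was 146 in E1, 35.9 in F2 and 86.6 in WT with tazemetostat, and 19.9, 4.58 and 9.57 in DMSO. Over the 801 genes it was 22.7 in E1, 79.7 in F2 and 50.02 in WT with tazemetostat, and 5.94, 12.6 and 11.9 in DMSO. Of genes picked here after their values were seen, PMAIP1, MSX2 and CCL2 had lower means in E1 than in F2 and WT, and COL9A1 had a higher mean in F2 than in E1 and WT, with WT tazemetostat means of 43.8, 99.7, 1423 and 114.

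Few genes of the RB and E2F axis passed the threshold. Of 20 tested pocket protein, E2F and DREAM complex genes none passed (median log2 difference -0.074), against 7.56% of all tested genes. At that share few would be due in a list this short. The ends of the range of these 20 genes were TFDP1 (0.47), the partner of E2F factors, and MYBL2 (-0.88), a cell-cycle transcription factor. In DMSO 1 of the 20 was higher in E1, and the difference between treatments passed the threshold at 1. Of 66 G1/S genes only CCNE2, the gene of cyclin E2, passed, with 1168, 1221 and 1190.0 in E1 against 589, 506 and 552 in F2. It was higher in E1 without overlap (log2 difference 1.12 ± 0.075 (SE), adjusted p = 2.1e-08) and also in DMSO (1.29). None of 67 G2/M genes passed, although their median was -0.22 with tazemetostat and -0.36 in DMSO, and the proliferation marker MKI67 (-0.45), CCNA2 (-0.39) and AURKB (-0.43) were lower in E1 in each library at adjusted p = 0.00071, 0.00018 and 6e-05 with log2 differences inside 1. Of 14 tested PRC2 subunit and H3K27 demethylase genes none passed. In DMSO 1 of the 14 was lower in E1, and the difference between treatments passed the threshold at 1. EZH2, the target of the drug, had 2916, 3023 and 3028 in E1 against 2717, 2599.9 and 2632 in F2 (log2 difference 0.17 ± 0.057 (SE), adjusted p = 0.022).

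CDK inhibitor genes went in both directions. CDKN1A, which encodes p21, had 10891, 10559 and 10771 in E1 against 5519, 5156 and 5185 in F2. It was higher in E1 in every library (log2 difference 1.02 ± 0.056 (SE), adjusted p = 2.5e-09), as it was in DMSO by 1.89, and it fell inside the limit, at 0.94, when libraries were scaled to the same total. CDKN2B, which encodes p15, had 1451, 1472 and 1695 in E1 against 5639, 5184 and 5847 in F2, lower in E1 (log2 difference -1.85 ± 0.072 (SE), adjusted p = 5.7e-11). CDKN2A and CDKN1C had log2 differences of -0.82 and -0.91, inside the limit of 1.

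CDKN1A is a target of p53, and of 41 tested p53 targets 8 were higher and 2 lower in E1, against 2.66% and 4.9% of all tested genes (median 0.60, against 0.0026 over all tested genes). FAS, a death receptor, had 1597, 1839 and 1667 in E1 against 790.3, 831 and 763 in F2. CYFIP2 had 7782, 7929 and 8467 in E1 against 2809.8, 2744 and 2831 in F2. The libraries of the clones did not overlap at either gene, and the log2 differences were 1.10 and 1.53. The DNA polymerase gene POLH (1.13), RPS27L (1.15), the restriction factor gene TRIM22 (1.82), and EDA2R were also higher in E1, and each of the 8 was also past the threshold in DMSO, where 9 of the 41 were higher and none lower. PMAIP1, which encodes the pro-apoptotic protein NOXA, went the other way with 5.32, 2.9 and 7.54 in E1 against 103, 79.7 and 103 in F2, and PLK2, a polo-like kinase gene, was also lower in E1 (log2 difference -1.61). Neither differed past the threshold in DMSO.

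Among genes of antigen presentation, 5 of 14 tested MHC class II genes were lower in E1 and none higher, 1 of the 5 with a mean under 10 in E1, against 4.9% lower and 2.66% higher among all tested genes. HLA-DPA1 had 98, 89 and 75.4 in E1 against 512, 469 and 438 in F2, HLA-DRA had 10.6, 16.4 and 9.42 in E1 against 74.8, 56.5 and 60.1 in F2 and HLA-DPB1 had 52.2, 45.5 and 49.9 in E1 against 197, 216 and 191 in F2. F2 exceeded E1 in every library at these 3 genes, with log2 differences of -2.43, -2.33 and -2.01. CIITA, the activator of class II genes, was lower in E1 (log2 difference -1.39) and had 0 reads in DMSO in both clones, as had HLA-DRA, and HLA-DMA, a class II peptide editor, was lower too (-1.05). The HLA genes are so alike that reads may be shared between them. Of 18 class I and peptide-loading genes only HLA-G passed, at low counts and with overlapping libraries (log2 difference -1.25 ± 0.44 (SE), adjusted p = 0.033). Its call was lost with a replicate block, a pseudocount of 5, DESeq2 or all 18 libraries in the fit, or without E1 replicate 3, F2 replicate 1 or F2 replicate 3. In DMSO 5 of the 18 class I and peptide-loading genes were higher in E1 and none lower, HLA-G among them (1.52). Of the 14 class II genes 1 was higher in E1 in DMSO and none lower.

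Interferon-stimulated genes showed 8 lower and none higher of 47 tested (median -0.27), where 4.9% of all tested genes were lower and 2.66% higher. PLSCR1, a phospholipid scramblase, had 29.8, 20.3 and 23.6 in E1 against 209.7, 156 and 207 in F2, the largest of these differences at -2.91. The RNA helicase-like gene DDX60L (-1.50), XAF1 (-1.36), TMEM173, which encodes the DNA sensor adaptor STING (-1.35), UBA7, IFITM2, GBP3 and IRF7 were the others, and none of the 47 passed the threshold in DMSO. Cytokine and chemokine genes split evenly, 6 higher and 6 lower of 30. CCL2, a monocyte chemokine with 0 reads in DMSO, had 29.8, 28 and 37.7 in E1 against 799, 676 and 681 in F2. IL6 was the reverse with 1279, 1276 and 1271 in E1 against 266, 258 and 231 in F2. E1 was lower in each library for CCL2 (log2 difference -4.46 ± 0.14 (SE), adjusted p = 5.7e-12) and higher in each for IL6 (log2 difference 2.34 ± 0.08 (SE), adjusted p = 1.6e-11). CXCL5, CXCL6 and IL8, which recruit neutrophils, and TNFSF15 were lower in E1, with log2 differences of -1.46, -1.44, -1.18 and -1.75. The related chemokine CXCL1 (1.55), CCL20 (1.46), IL1B (1.50), LIF (1.11) and TNFSF9 (1.02) were higher in E1.

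Extracellular matrix genes were lower in E1 more often than higher. Of 33 tested collagen genes 10 were lower and 2 higher, and of 51 matrix proteins and matrix enzymes 14 were lower and 6 higher, against 4.9% lower and 2.66% higher over all tested genes. COL1A1, a chain of type I collagen, had 1659.8, 1411 and 1439 in E1 against 6839, 6101 and 5673 in F2. Its partner chain COL1A2 had 379, 457 and 426 in E1 against 68, 31.3 and 52.7 in F2. The 2 chains of the same trimer thus differed in opposite directions, with log2 differences of -2.04 and 3.09 and no overlap at either gene. COL4A1 (-1.86), COL4A2 (-1.43) and COL4A6 (-1.94) of basement membranes, COL9A1 (-3.01) of cartilage and COL16A1 (-2.24) were lower in E1. FN1, which encodes fibronectin, had 4762, 4518 and 5410.1 in E1 against 13183, 13108 and 13868 in F2. POSTN, periostin, had 4109.7, 4515 and 5058 in E1 against 11119, 10631 and 10958 in F2, and SPARC, osteonectin, had 3602, 3744 and 3871 in E1 against 10937, 9942 and 10769.7 in F2. All 3 were lower in E1 without overlap, with log2 differences of -1.45, -1.26 and -1.50. In DMSO FN1 and POSTN had means under 10 in both clones, and SPARC was higher in E1 (1.60). Of 33 integrin and laminin genes 6 were lower and 2 higher, the higher ones being ITGA2 and ITGB6, an epithelial integrin subunit with 5129, 5369 and 5422 in E1 against 1613, 1566 and 1571 in F2.

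**Figure D3:**
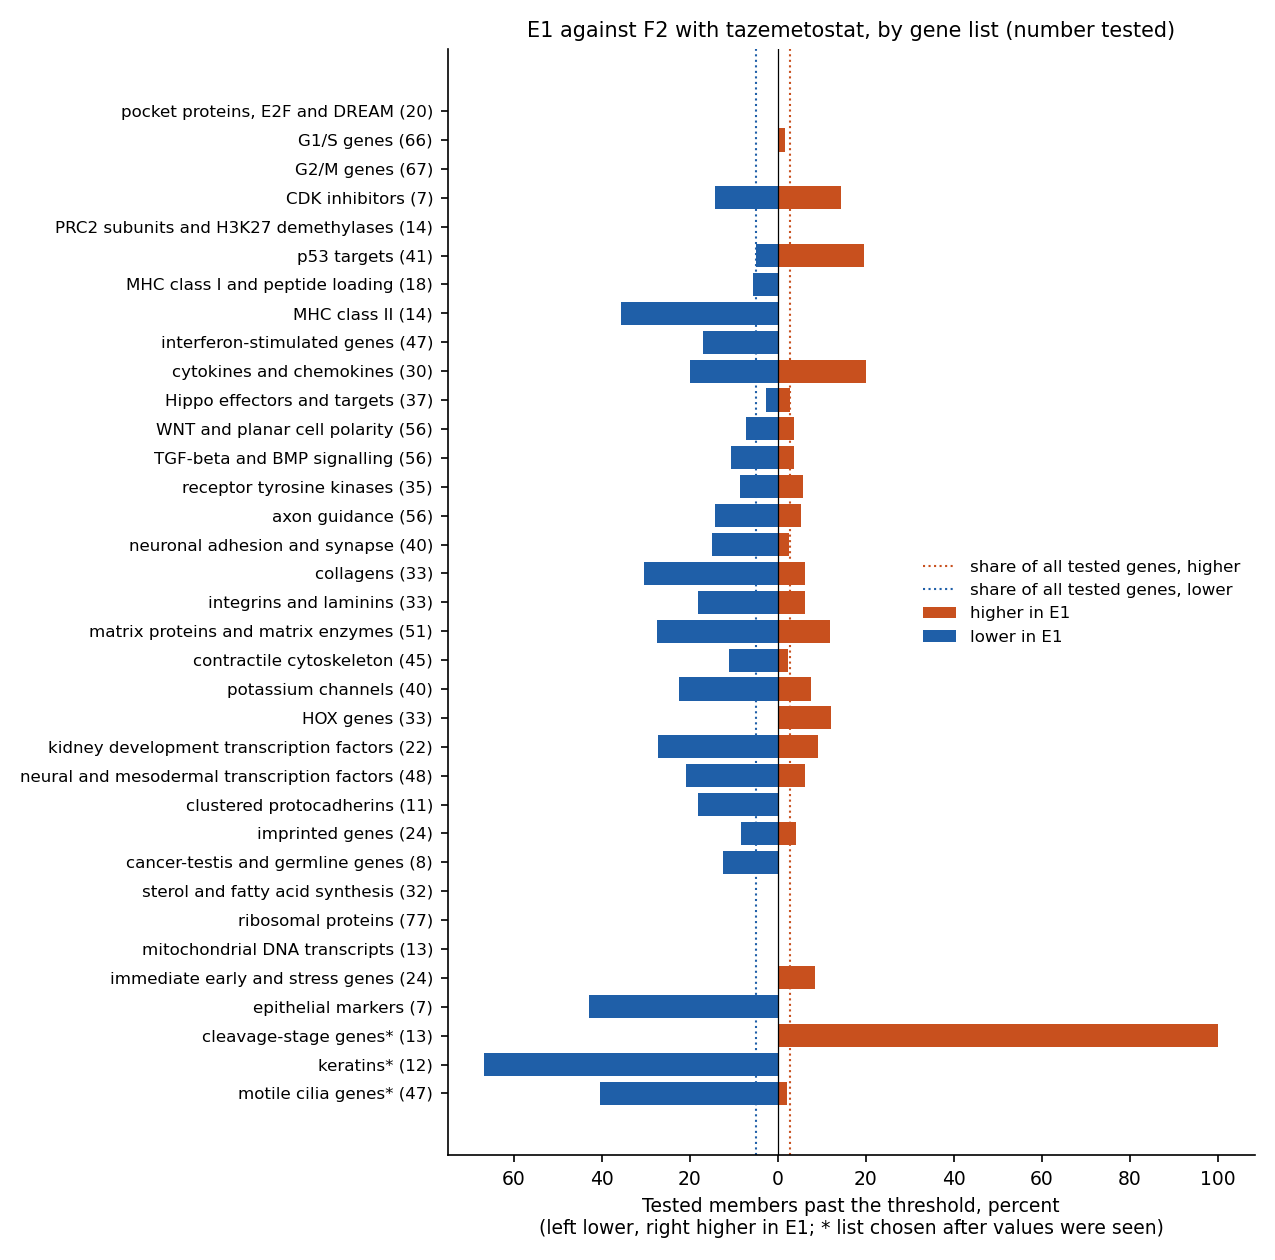
Share of the tested members of each gene list that passed the threshold with tazemetostat, higher in E1 to the right and lower in E1 to the left, with the number tested in brackets and dotted lines at the shares of all 16342 tested genes (2.66% and 4.9%). No gene passed in the lists for pocket proteins, G2/M, PRC2, sterol synthesis, ribosomal proteins and mitochondrial DNA, and the lists with an asterisk were chosen after their values were seen.

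Of the lists of developmental transcription factors, 12.1% of the HOX genes, 36.4% of the kidney factors and 27.1% of the neural and mesodermal factors passed the threshold, against 7.56% of all tested genes. Of 33 HOX genes 4 were higher in E1 and none lower: HOXB9 with 1570.4, 1517 and 1643 in E1 against 578, 579 and 594 in F2, HOXB6 (1.33), HOXB5 (1.45) and HOXD1 (1.59). HOXB9 and HOXB6 were also higher in E1 in DMSO. Of 22 kidney development factors 6 were lower, among them FOXC2 (-2.42), EYA4 (-1.93) and EMX2 (-1.77), and 2 were higher, LHX1 (1.41) and MEOX1 (1.09). Of 48 neural and mesodermal factors 10 were lower and 3 higher in E1. MSX2, a homeobox factor of bone and limb, had 39.4, 37.7 and 45.2 in E1 against 352, 258 and 249.7 in F2, and RUNX2, the regulator of bone formation, had 296, 237 and 248 in E1 against 720.4, 746 and 793 in F2. Both were lower in E1 in each library (log2 differences -2.77 and -1.53), as were FOXF1 (-1.93), MEIS1 (-1.91) and RUNX1 (-1.61). ST18 (2.06) and NEUROG2 (1.05) were among those higher in E1.

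Among all tested genes, 4.9% were lower and 2.66% higher in E1, and some lists of secreted signals and receptors were near these shares. Of 56 WNT and planar cell polarity genes 4 were lower and 2 higher in E1. The WNT antagonists APCDD1, FRZB and SFRP1 (-2.02) were lower, and the ligand WNT5A (1.11) and the R-spondin gene RSPO3 (1.46) were higher. Of 56 TGF-beta and BMP genes 6 were lower and 2 higher. The ligand GDF5 had 42.6, 46.4 and 41.5 in E1 against 303, 275 and 327 in F2, and the BMP antagonist NOG had 47.9, 35.8 and 39.6 in E1 against 226, 207 and 191 in F2. Both were lower in E1 in every library (log2 differences -2.76 and -2.32), and so were GDF6, INHBA, INHBB and FSTL1, while FST, which encodes follistatin (1.24), was among the higher ones. Of 35 receptor tyrosine kinases 3 were lower, NTRK3 and EPHA7 (-1.02) among them, and EPHA3 and ERBB4 were higher. Of 37 Hippo effectors and targets AMOT (-1.76), an angiomotin, was lower and VGLL3 higher. ANKRD1, a target of YAP, had 16102, 18423 and 16555 in E1 against 28986, 28774 and 28511 in F2, a log2 difference of -0.76 that is inside the limit of 1, and a mean under 1 in both clones in DMSO.

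In the neuronal and channel lists lower genes outnumbered higher ones, as they did among all 1235 genes past the threshold, of which 801 were lower in E1. Over all tested genes 4.9% were lower and 2.66% higher. Of 56 axon guidance genes 8 were lower, led by PLXNC1 and SEMA5B (-2.65), and 3 were higher, NAV3 (1.50), DRAXIN (1.27) and the semaphorin SEMA3C with 19853, 22606 and 22131 in E1 against 8688, 8789.9 and 9763 in F2. Of 40 neuronal adhesion and synapse genes 6 were lower, among them CADM1, CADM2 (-2.76) and the glutamate receptor genes GRIN2D (-1.70) and GRIK2 (-2.68), and CNTN1 (1.42) was higher. Of 40 potassium channel genes 9 were lower, with KCNJ16 (-2.86), KCNQ3 (-2.52) and KCNC1 (-1.83) the largest, and 3 were higher. CNTNAP2, a neurexin-like gene that had a mean under 2 in both clones in DMSO, reached 19536, 19997 and 22438 in E1 against 12196, 11649 and 12431 in F2 with tazemetostat, a log2 difference of 0.77. MDFIC and PTGFRN likewise had means under 1 in DMSO in both clones and reached 345, 399 and 447 in E1 against 501, 477 and 487 in F2 and 2048, 2268 and 2186 in E1 against 2127, 2091 and 2196 in F2, with log2 differences of -0.31 and 0.019.

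Among strongly expressed genes, EMP1, an epithelial membrane protein gene, had 149081, 172320.0 and 161371 in E1 against 59397, 56841 and 60421 in F2, higher in E1 by 1.45 with tazemetostat and 1.48 in DMSO. The growth factor gene FGF5 had 24158, 26318 and 26898 in E1 against 11779, 12336 and 11594 in F2. It was higher in E1 without overlap, by 1.11. LZTS1 (1.18), SEMA3C (1.25) and FLNC, which encodes filamin C (1.05), were also higher in E1, with FLNC inside the limit of 1 when libraries were scaled to the same total (0.96) or without E1 replicate 1 (0.97). PSG9, a pregnancy-specific glycoprotein gene with near-identical copies between which reads may be split, had 7083, 7769.9 and 7858 in E1 against 27288, 26328 and 27325 in F2, lower in E1 (log2 difference -1.83). The kinesin gene KIF1A was lower at -1.16, which became -0.98, inside the limit, after values were centred by GC content.

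The last 3 groups of genes were chosen after their values were seen, so they are described without a test of the group. Genes switched on in human embryos at the cleavage stage, known from cells with the transcription factor DUX4, were higher in E1: all 13 tested of 44 listed passed the threshold upward, and the other 31, including DUX4 itself with 0 reads in every library, fell below the limit on mean value. Of the 13, 7 had a mean under 10 in F2 and so had to differ to be tested. Over all tested genes 2.66% were higher in E1. Several of the 13 are TRIM copies between which reads may be shared, as described below. ZSCAN4, a zinc-finger gene of that stage, had 128, 114 and 132 in E1 against 13.6, 9.08 and 9.25 in F2. PRAMEF12 had 138, 106 and 99.9 in E1 against 12.6, 3.03 and 4.62 in F2. Each E1 library exceeded each F2 library at both genes, with log2 differences of 3.45 and 4.09. In DMSO PRAMEF12, TRIM49, TRIM49C, TRIM64B and TRIM53AP had 0 reads in both clones, and 3 of the 13 were past the threshold there, ZSCAN4, RFPL4B and SLC34A2. WT libraries with tazemetostat had means of 4.46 at ZSCAN4 and 10.6 at TRIM49, below those of F2, and of 540.4 at RFPL4B and 137 at SLC34A2, between the clones.

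Of the 13, 6 genes, TRIM49, TRIM53BP, TRIM64B, TRIM64, TRIM53AP and TRIM49C, follow each other as tested genes on chromosome 11, with a median log2 difference of 3.21. TRIM49 had 164, 171 and 117 in E1 against 17.5, 11.1 and 11.1 in F2 and TRIM49C had 115, 110.3 and 103 in E1 against 13.6, 9.08 and 9.25 in F2, high in E1 in both cases. Their promoters are shown as an example of how alike these copies are. The promoters are not part of the RNA, and the transcripts were not compared. Reads may be shared between the copies, so the split of counts among them is uncertain. The 6 genes may thus not be separate observations. Over the 250 bases before the start, RefSeq GRCh38.p14 differs at 1 base, in capitals, an identity of 99.6%. TRIM49 lies on the minus strand at chr11:89808576-89808825 and TRIM49C on the plus strand at chr11:90030856-90031105.
TRIM49: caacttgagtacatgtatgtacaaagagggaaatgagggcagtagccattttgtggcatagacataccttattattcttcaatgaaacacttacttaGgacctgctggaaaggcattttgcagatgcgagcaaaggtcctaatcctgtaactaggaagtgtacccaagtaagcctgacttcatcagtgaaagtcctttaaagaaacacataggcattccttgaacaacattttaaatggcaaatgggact
TRIM49C: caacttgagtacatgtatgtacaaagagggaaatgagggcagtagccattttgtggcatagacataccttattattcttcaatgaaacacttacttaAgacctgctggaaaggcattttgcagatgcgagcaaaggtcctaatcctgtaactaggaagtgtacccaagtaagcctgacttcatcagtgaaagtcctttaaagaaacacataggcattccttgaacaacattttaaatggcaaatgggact

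Genes of motile cilia were lower in E1 at 19 of 47 tested members and higher at 1, WDR63 (1.42). Over all tested genes the shares were 4.9% lower and 2.66% higher. In DMSO 6 of the 47 were lower in E1 and 3 higher. FOXJ1, the transcription factor that drives motile ciliogenesis, had 19.2, 16.4 and 18.8 in E1 against 600.0, 456 and 438 in F2, a ratio of F2 to E1 of 27.4 (log2 difference -4.69 ± 0.16 (SE), adjusted p = 1.3e-11). In DMSO FOXJ1 stood at 17.8 in E1 and 64.4 in F2. With tazemetostat the F2 mean was far higher, at 498, while the E1 mean was about the same, at 18.1. CDC20B had 38.3, 49.3 and 52.8 in E1 against 1137, 991 and 951 in F2, the dynein gene DNAI1 had 19.2, 11.6 and 17.9 in E1 against 81.6, 64.6 and 79.5 in F2 and ENKUR had 14.9, 24.2 and 17.9 in E1 against 95.1, 98.9 and 79.5 in F2. The clones did not overlap at these 3 genes, which were lower in E1 with log2 differences of -4.43, -2.17 and -2.23. GMNC, an early regulator of multiciliated cells, CCNO, RSPH1 and RSPH4A of the radial spokes and DNAAF1 were also lower, and RFX2, RFX3, MCIDAS and 24 further members did not pass. Of the 20 that passed, 3 had a mean under 10 in E1 or F2.

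Keratin genes were lower in E1 at 8 of 12 tested members, of which 3 had a mean under 10 in E1. None was higher, where 4.9% of all tested genes were lower and 2.66% higher. In DMSO 4 of the 12 were higher in E1 and none lower. KRT5, a basal epithelial keratin, had 509, 481 and 534 in E1 against 2819.5, 2587 and 2392 in F2. KRT75, a hair follicle keratin, had 177, 189.6 and 146 in E1 against 1174, 1248 and 1110.0 in F2. Both had no more than 1 read in any DMSO library and were lower in E1 in each tazemetostat library (log2 differences -2.35 and -2.79). KRT13, KRT15, KRT19 and KRT14, which follow each other on chromosome 17, were lower with a median of -2.61, KRT19 losing its call with a pseudocount of 5 or without E1 replicate 3, F2 replicate 1 or F2 replicate 2. KRT8 and KRT18, the simple epithelial pair, had 92247, 84753 and 84696 in E1 against 90273, 86592 and 88100.5 in F2 and 66110.3, 69302 and 66850.2 in E1 against 67295, 59904 and 62744 in F2, with overlapping libraries at both and log2 differences of -0.019 and 0.092, whereas in DMSO both were higher in E1, by 1.51 and 1.74.

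**Figure D4:**
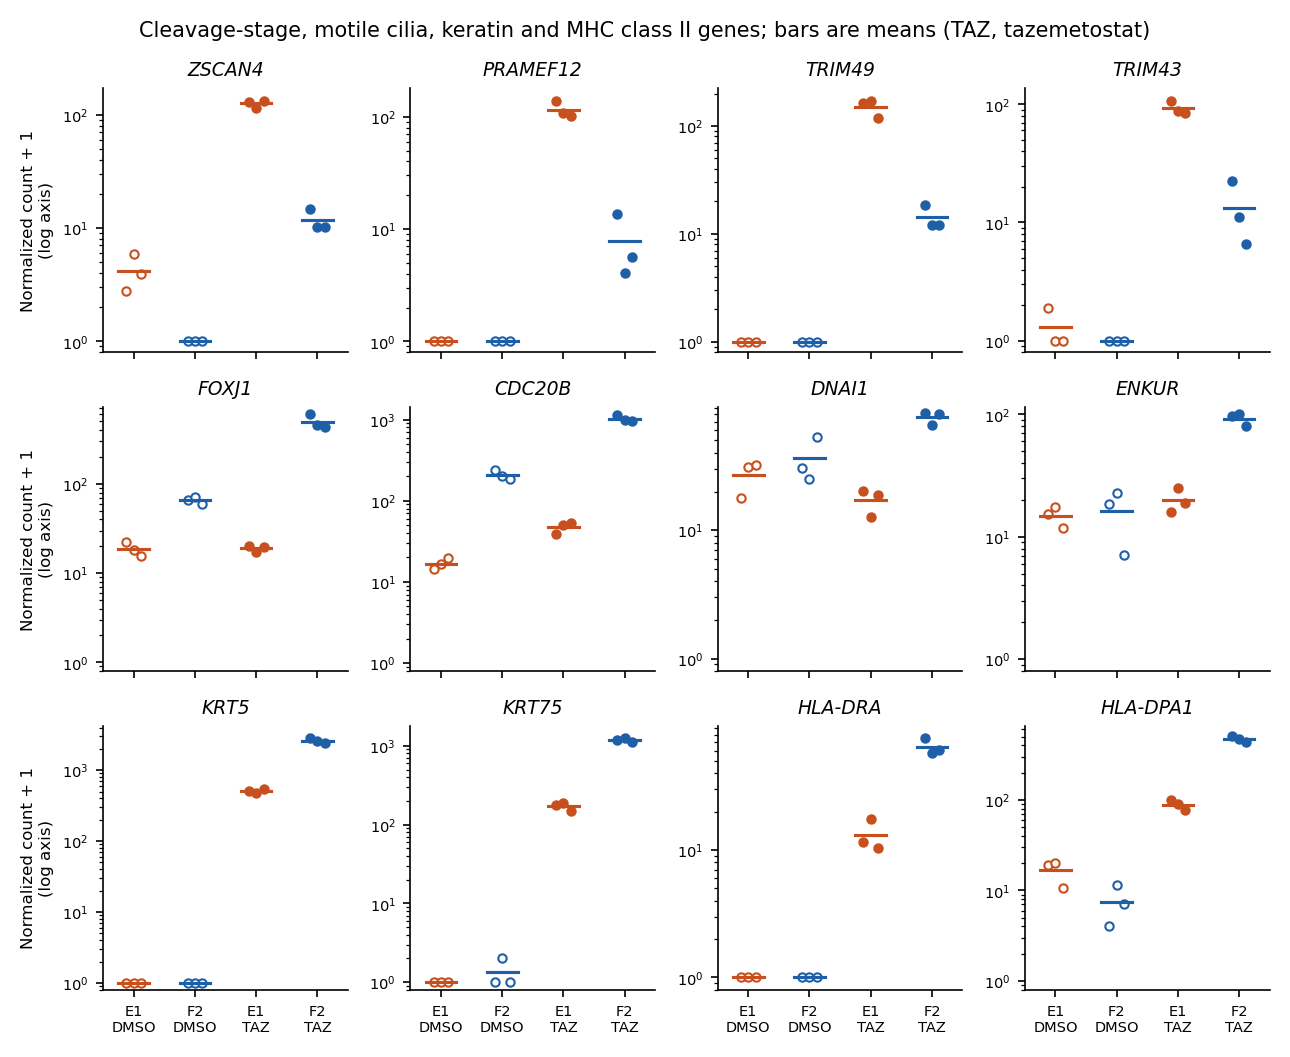
Normalized counts plus 1 on a log axis in each library of E1 (orange) and F2 (blue), in DMSO (open points) and with tazemetostat (filled points, TAZ), 3 libraries per group, with bars at the group means. The cleavage-stage genes of the top row are higher in E1 with tazemetostat, and the cilia, keratin and MHC class II genes of the other rows are lower in E1 with tazemetostat.

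Marker lists of other cell types were low or mixed. Over all tested genes 4.9% were lower and 2.66% higher in E1. Of 16 blood cell markers 14 were below the limit on mean value, including PTPRC, CD3E and MS4A1, and their summed normalized count was 35.1 to 45.2 in E1 and 42.4 to 50.5 in F2, with CD79A lower in E1 (-1.48). Of 9 endothelial markers 4 were tested and CDH5 was lower in E1 (-1.80), at sums of 538 to 789 in E1 and 1085 to 1290.3 in F2. CD79A and CDH5 both had a mean under 10 in E1, so they had to differ to be tested. Of 16 epithelial markers 7 were tested and CLDN4, KRT19 and MUC1 were lower in E1, 1 of them with a mean under 10 in E1. The sums, made up almost wholly of KRT8 and KRT18, were 152234 to 159049 in E1 and 147881 to 159087 in F2. CLDN3 had 0 reads in the 6 libraries, and EPCAM and CLDN7 were under the limit on mean value. Of 15 neuroglial markers MBP was higher in E1 (1.79), where the sums were 12148 to 13279 against 8397 to 9251. These lists hold genes that the line itself expresses, and the part of any other cell type in the results was not tested.

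None of 32 sterol and fatty acid synthesis genes, 77 ribosomal protein genes or 13 mitochondrial DNA transcripts passed the threshold. For these and the lists that follow, the shares over all tested genes were 4.9% lower and 2.66% higher in E1. The mitochondrial transcripts had a median of 0.28 with tazemetostat and -0.32 in DMSO. Of 24 imprinted genes H19, a non-coding RNA, was lower in E1 with 10.6, 13.5 and 17.9 in E1 against 218, 199.8 and 225 in F2 (log2 difference -3.87 ± 0.2 (SE), adjusted p = 1.2e-09), SLC22A18 was lower (-1.19) and TFPI2 higher. Of 24 immediate early and stress genes HMOX1, heme oxygenase 1 (1.49), and EGR2 (1.14) were higher in E1 and none lower. Of 45 contractile cytoskeleton genes 5 were lower, with ACTN3 (-1.67) the largest, and FLNC was higher. The clustered protocadherins PCDHGA10 (-1.48) and PCDHGB7 (-1.42), of 11 tested, and SYCP2, of 8 tested cancer-testis and germline genes (-2.03), were lower in E1. Differences followed GC content in part: Pearson's r between transcript GC content and the log2 difference was -0.20 across the 13768 genes with a value, and the median difference was 0.10 in the 10% of genes with the lowest and -0.31 in the 10% with the highest GC content. After values were centred by GC content, 347 of these genes were higher and 649 lower in E1, against 332 and 694 before.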

How the data were processed

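Poly(A) RNA libraries, stranded per the labels' protocols, were made from G401 clones with 3 replicates per group. The deposited signal is a normalized count per gene: per the submitters' processing notes, hg19, Trim Galore 0.4.4, STAR 2.6.0a, HTSeq and DESeq2 were used, with no role or order given, and the annotation and the strand setting of the counting are not given in the sources used here. The values were whole multiples of a constant in each library (100% within a relative tolerance of 1e-06), so whole reads were recovered, 31947071 to 37258788 in the 6 libraries compared and 25709489 to 39314860 over all 18. Precision is limited by counting at low genes and by 3 libraries per group.

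Genes with a mean of at least 10 over the 6 tazemetostat libraries were tested with limma 3.58.1 (trend) in R 4.3.3 on log2(normalized count + 1), a scale on which differences of low genes are understated. A gene was called at a Benjamini-Hochberg adjusted p under 0.05 over all tested genes and a log2 difference of at least 1. The DMSO comparison used 6 other libraries of the same genes, and the difference between treatments came from a fit over these 12. Lower bounds on a ratio use a floor of 3 reads per library. Alternatives on the recovered reads were edgeR 4.0.16 with its quasi-likelihood test after TMM scaling, and DESeq2 1.42.0. Further alternatives were other pseudocounts, filters, scalings and fold limits, a replicate block and each library left out. GC centring was added after seeing the data. On simulated data with 200 changed genes, limma recovered 97.8% of genes changed by 1.5 and 100% of those changed by 2 on the log2 scale in the tazemetostat comparison. In the fit of the difference between treatments it recovered 89.4% and 96.9%, and 0.535% of calls were false. The simulation gave every gene the same dispersion, and each gene the same mean in all unchanged groups. It thus held no genes silent in DMSO alone, and its rates do not cover them.

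The clone pair, the genes and the lists were chosen with earlier results of these data known. Named genes were the 14 largest differences in each direction and the 8 most abundant among called genes with a mean of at least 50, no overlap between clones and a name that is not clone-based, up to 4 called members per list, the 6 largest changes between treatments in each direction, the 6 largest per direction on opposite sides in the treatments, and a set of cell-cycle, Polycomb and earlier reported genes. Further called list members are named beside their list, and some genes that the rule selects are not reported here. Promoters are from RefSeq GRCh38.p14, matched by symbol. Chromosome, gene order and transcript GC content come from GENCODE 29 on GRCh38, matched by symbol for 84.1% of tested genes. Gene coordinates in hg19 were not used here.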

Additional observations from a re-analysis of the deposited data

Results flagged for a closer look

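The difference between the clones was not the same with tazemetostat as in DMSO at 963 genes, by the test of the difference between treatments in limma over 12 libraries. For the genes named next, with more than 3 reads in DMSO, the value with tazemetostat minus the value in DMSO is given on the log2 scale. Among the largest changes, PRICKLE2 (-9.73), RNF182 (-8.98), HMCN1 (-8.41), PLXNA2 (-6.43), OLR1 (-6.05) and RP11-24F11.2 (-5.91) were far higher in E1 in DMSO and less so, or hardly, with tazemetostat. NAV2 (8.79), OGFRL1 (7.76), FSTL1 (5.46), KIF26B (5.18) and PGBD5 (5.13) were far lower in E1 in DMSO and nearer to F2 with tazemetostat. In the clone that was low in DMSO, the DMSO mean was 44.7 at FSTL1 and 13.2 at KIF26B, and under 10 at the other 9 genes.

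Among genes on opposite sides in the 2 treatments, PRKD1 (5.79), IPCEF1 (4.64), MYH15 (4.30), ERBB4 (3.63) and MGAM (3.17) moved toward E1, and SLC52A3 (-4.34), KCNJ16 (-4.29), LTB (-3.82), IL32 (-3.76), NPPB (-3.58) and KRT80 (-3.36) moved toward F2.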

How the results depend on the processing

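The tazemetostat count of 1235 genes became 1940 without the filter, 670 with a mean of at least 50, 7128 with no fold limit and 328 with a log2 limit of 2; the DMSO count of 961 became 2943 and 315 under the last 2. The count of 963 for the difference between treatments became 639 with a mean of at least 50, 1907 with no fold limit, 408 with a log2 limit of 2, 637 with edgeR and 608 with DESeq2. With 1 library left out the ranges were 1181 to 1391, 675 to 913 and 831 to 1104. Same-numbered E1 and F2 libraries did not deviate together with a steady sign (correlations -0.1645, -0.1197 and -0.0243 with tazemetostat, -0.1672, 0.2375 and 0.0202 in DMSO). With 3 libraries per group these values cannot show whether same-numbered cultures were handled together. Libraries of the same clone in the 2 treatments were not compared in this way. A replicate block gave 1224, 621 and 924 genes, and the DMSO count moved the most, from 961. Other scalings, pseudocounts and tools gave 1049 to 1291 in the tazemetostat comparison. Of 147 named genes, RB1, PTGFRN, NAV2 and KIF26B, none of them called, changed sign: with the same total to -0.025, -0.064, -0.011 and -0.074, GC-centred to -0.050 (RB1) and -0.091 (PTGFRN), without E1 replicate 2 to -0.015 (PTGFRN; 0.059 to -0.015 over left-out libraries), and without E1 replicate 1, E1 replicate 3 or F2 replicate 1 to -0.022, -0.046 and -0.015 (KIF26B; 0.096 without E1 replicate 2). Of 127 called named genes, 62 lost the call with a log2 limit of 2, and FLNC, CDKN1A, KIF1A, SLC22A18, SGCA, HLA-G and KRT19 also lost it elsewhere, SLC22A18 at -0.84 GC-centred and SGCA at -0.92 without E1 replicate 1. The cause was not tested. Calls at genes with few reads are limited by depth.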

Other observations

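The largest difference of all belonged to RP11-1112C15.1, a clone-named transcript chosen here after its values were seen. Its mean was 5792 ± 288 in E1 and 8.74 ± 1.35 in F2 with tazemetostat (SD, n = 3), a log2 difference of 9.22, and 4989 and 4.65 in DMSO. RP11-493L12.3 followed with means of 166 in E1 and 0.324 in F2 with tazemetostat.

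Some called genes were neighbours among the tested genes. GPRC5A, HEBP1, HTR7P1, GSG1 and EMP1 on chromosome 12 were all higher in E1, with a median log2 difference of 1.50 with tazemetostat and 1.57 in DMSO. S100A11, SPTLC1P4, TCHH and FLG-AS1 on chromosome 1 were all lower in E1 with tazemetostat, with a median of -1.35 and 0 in DMSO.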
